A study of Mus musculus with 10 samples.

Results

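The 10 genes described here encode proteins that fuse, divide, proofread and maintain mitochondria: Opa1, Mfn1, Mfn2, Oma1, Yme1l1, Dnm1l, Fis1, Mff, Pink1 and Tfam. They were taken by symbol, and all 10 were found once each among the 54347 gene records of the count table and passed the filter on low counts, which left 13732 genes. RNA was measured by poly A RNA-Seq in interscapular brown adipose tissue (iBAT), the thermogenic fat between the shoulder blades, of 5 ΔGm15551 and 5 wild type mice. ΔGm15551 mice carry a CRISPR/Cas9 deletion that includes exon 1 of the lncRNA gene Gm15551. The knock-outs were crossed back to wild type for 2 generations, and the wild type mice were littermates. Every mouse was on the C57BL/6N background, was 12 weeks old, was fed chow and was housed alone at 4 °C for 24 h before dissection. The cold was thus shared by both groups, and no warm group was among the mice used here. The deletion is present in every cell of the mouse, and the tissue was sequenced whole.

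Mitochondria form a network that is joined by fusion and cut by fission. Fusion of the outer membrane needs the mitofusins MFN1 and MFN2 and fusion of the inner membrane needs OPA1, a dynamin-like GTPase that is cut into short forms by the inner membrane proteases OMA1 and YME1L1. Fission needs DRP1, the dynamin-related GTPase encoded by Dnm1l, which is drawn to the outer membrane by adaptors such as MFF, while FIS1 is a small outer membrane protein linked to fission and to the removal of damaged organelles. PINK1 is a kinase that builds up on damaged mitochondria and starts their removal by mitophagy, and TFAM packages mitochondrial DNA (mtDNA) and helps to start its transcription. Brown adipocytes are packed with mitochondria, and their network is known to fragment when noradrenaline activates heat production.

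Total counts were 12593971 to 14438903 per ΔGm15551 mouse and 9680976 to 15771170 per wild type mouse, and the 10 genes together took 0.0907% to 0.130% of them. The smallest count of any of the 10 genes in any mouse was 69, for Oma1. Gm15551 itself had 0 counts in all 5 ΔGm15551 mice and 1, 2, 6, 7 and 0 counts in wild type replicates 2, 3, 5, 6 and 7, so at this depth wild type replicate 7 could not be told from a knock-out by this gene. Brown adipocyte markers were all present, with Ucp1, the uncoupling protein, at 5747 to 10990.0 CPM (counts scaled to a common library size) in ΔGm15551 and 6436 to 9007 in wild type. For the marker Adrb3 the groups did not overlap (158 to 234 and 123 to 157 CPM), as for 0.32% of all genes tested. At an unadjusted edgeR p under 0.05, 1 of 10 brown adipocyte markers was higher and 1 of 5 white adipocyte markers lower in ΔGm15551, beside 0.961% and 0.634% of all genes. After adjustment 0 of them passed. A list of 10 skeletal muscle genes took 0.263% of the counts of wild type replicate 7, 0.158% of ΔGm15551 replicate 4, 0.0734% of ΔGm15551 replicate 1 and at most 0.0228% in the other 7 mice. Wild type replicates 5, 6 and 7 carry mouse numbers from a series far above that of the other 7 mice, and this second series holds wild type mice only. Where nothing else is said, levels are CPM scaled by TMM, the trimmed mean of M values, which sets the libraries to a common scale.

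No difference between genotypes was detected for any of the 10 genes. The log2 fold change (log2FC, ΔGm15551 minus wild type) ran from -0.14 for Dnm1l to 0.15 for Pink1, with 8 values below 0 and 2 above, and the unadjusted p of the edgeR quasi-likelihood test ran from 0.238 to 0.919. After Benjamini-Hochberg adjustment over 13732 genes, 0 of the 10 and 0% of all genes passed 0.05, the smallest adjusted p being 0.9998. At an unadjusted p under 0.05, 0 of the 10 genes passed, beside 1.59% of all genes tested, 0.961% higher and 0.634% lower in ΔGm15551 (219 genes by edgeR, 228 by the DESeq2 Wald test and 248 by limma-voom, each with 0 after adjustment). Values of the groups overlapped for all 10 genes, and 0.32% of all genes tested had groups that did not. Their median log2FC was -0.03 against -0.00087 over all tested genes, and the median size of the change was 0.061 against 0.094. The 95% confidence intervals from limma-voom spanned -0.56 to 0.43 at the widest, for Opa1, which is 0.677-fold to 1.35-fold, and for the other 9 genes they lay within 0.5 log2 units of 0. The p-values measure the spread between these mice alone. Without wild type replicates 5, 6 and 7, that is within the lower series of mouse numbers, log2FC ran from -0.21 for Dnm1l to 0.24 for Pink1 and none of the 10 passed. For these 3 mice, number series and genotype cannot be told apart.

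**Figure D1:**
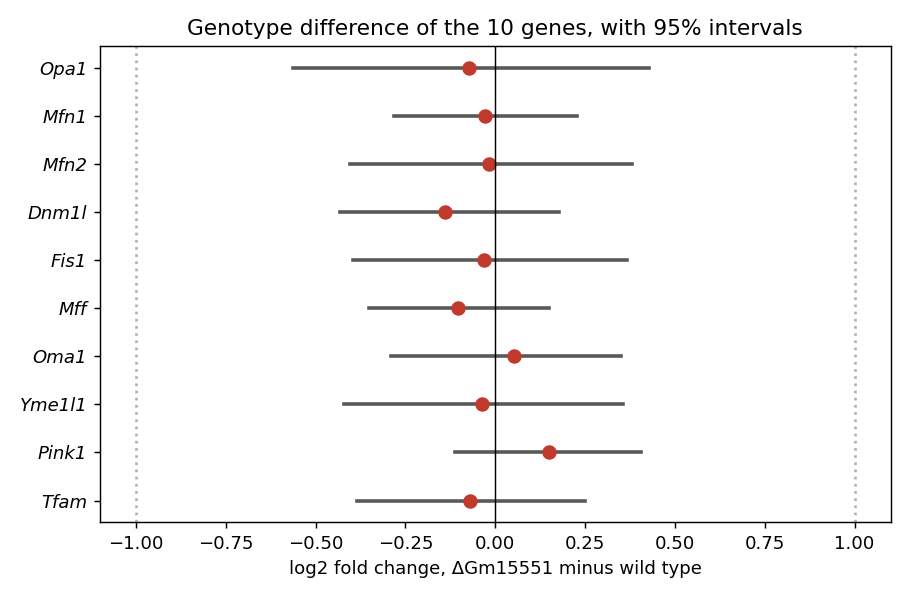
Log2 fold change of each gene, ΔGm15551 minus wild type (points, edgeR), with its 95% confidence interval (bars, limma-voom), from 5 mice per group. All 10 intervals include 0, and all lie inside the dotted lines that mark a change of 1 log2 unit in either direction.

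What the genes did show was a spread between mice that was shared by several of them and cut across genotype. Its size was not unusual. By the biological coefficient of variation of edgeR, the 10 genes lay between percentile 20.8 (Mff) and 76.4 (Opa1) of all 13732 genes tested. The sequences before the starts of 4 genes are shown here because, of the 10, these 4 hold a match to the motif named next. Each sequence is the 250 bases before an annotated transcript start in RefSeq (GRCm38.p6), read 5′ to 3′ on the strand of the gene, and capitals mark a match on either strand to the core of the GABPA (NRF-2) motif, CCGGAAG. GABPA is a known activator of nuclear genes for mitochondrial proteins. The Mfn1 window lies at chr3:32529232-32529481 (plus strand), Yme1l1 at chr2:23156255-23156504 (plus strand), Tfam at chr10:71238045-71238294 (minus strand) and Fis1 at chr5:136953025-136953274 (plus strand).
Mfn1: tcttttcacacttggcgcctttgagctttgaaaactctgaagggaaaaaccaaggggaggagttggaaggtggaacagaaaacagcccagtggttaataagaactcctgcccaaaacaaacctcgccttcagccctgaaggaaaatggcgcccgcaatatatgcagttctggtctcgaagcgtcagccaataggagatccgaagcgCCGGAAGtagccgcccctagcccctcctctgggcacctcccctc
Yme1l1: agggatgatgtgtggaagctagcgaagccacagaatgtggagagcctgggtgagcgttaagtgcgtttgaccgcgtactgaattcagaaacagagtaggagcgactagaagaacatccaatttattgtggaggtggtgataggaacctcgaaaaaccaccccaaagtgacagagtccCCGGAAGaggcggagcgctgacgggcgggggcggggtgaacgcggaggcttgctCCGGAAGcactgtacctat
Tfam: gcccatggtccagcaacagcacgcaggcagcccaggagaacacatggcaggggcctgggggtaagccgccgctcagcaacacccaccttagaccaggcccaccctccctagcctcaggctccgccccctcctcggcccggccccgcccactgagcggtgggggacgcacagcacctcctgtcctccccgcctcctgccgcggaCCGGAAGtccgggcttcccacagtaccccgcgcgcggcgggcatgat
Fis1: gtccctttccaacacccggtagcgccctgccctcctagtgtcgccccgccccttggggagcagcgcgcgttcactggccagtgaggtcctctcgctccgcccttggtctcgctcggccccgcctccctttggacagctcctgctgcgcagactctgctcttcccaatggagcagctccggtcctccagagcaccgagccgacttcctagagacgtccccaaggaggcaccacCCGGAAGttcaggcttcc

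In these windows the match began 44 bases before the start of Mfn1, 47 bases before that of Tfam, 18 bases before that of Fis1, and 73 and 19 bases before that of Yme1l1. These were the 4 of the 10 genes with the GABPA letters, beside 7.83% of the 27025 genes with a window, and the windows of the other 6 did not hold them. Opa1 and Mff, which were lowest in the same 3 mice as Tfam, were among the 6, and no relation of the motif to the spread between mice was tested. The ERR motif AAGGTCA and the CREB motif TGACGTCA were in none of the 15 windows of the 10 genes, beside 4.70% and 1.77% of all genes. Matches of letters are a description and not evidence of binding.

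Opa1 (ENSMUSG00000038084.16, chromosome 16, 29579334 to 29654884, plus strand) varied most of the 10 genes. Its CPM was 118, 217, 199.8, 126 and 194 in ΔGm15551 replicates 1, 2, 4, 5 and 7 and 163.4, 219, 198, 212 and 107 in wild type replicates 2, 3, 5, 6 and 7. The group means were 171 ± 45.7 and 180 ± 46.2 (SD, n = 5 each). In all 3 mice, ΔGm15551 replicates 1 and 5 and wild type replicate 7, Opa1 lay apart from the other 7 at the low end, and both genotypes were among them. The highest mouse had 2.06 times the level of the lowest, while log2FC was -0.07 (SE 0.22, edgeR adjusted p = 0.9998).

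The mitofusins were both expressed, Mfn2 more than Mfn1. Mfn2 (ENSMUSG00000029020.13, chromosome 4, 147873599 to 147904704, minus strand) had 271, 460.0, 454, 384 and 424 CPM in ΔGm15551 replicates 1, 2, 4, 5 and 7 and 381, 421, 478, 462 and 278 in wild type replicates 2, 3, 5, 6 and 7. One mouse of each genotype, ΔGm15551 replicate 1 and wild type replicate 7, was low and the other 8 were close together, so the groups overlapped throughout (399 ± 77.4 and 404 ± 80.0, SD, n = 5 each). Mfn1 (ENSMUSG00000027668.13, chromosome 3, 32529465 to 32579239, plus strand) ranged from 64.6 to 91.3 CPM over the 10 mice, with its lowest values again in these 2 mice. Its highest mouse had 1.41 times the level of its lowest, the smallest such ratio of the 10 genes and close to the 1.44 of Mff. The ratio of Mfn2 to Mfn1 in CPM was 4.12 to 5.90, and the log2 ratio differed by 0.01 between the genotype means.

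Both OPA1 proteases were at the low end of the levels. Yme1l1 (ENSMUSG00000026775.9, chromosome 2, 23156369 to 23199260, plus strand) had 48.1, 69.9, 60.2, 41.3 and 63.4 CPM in ΔGm15551 replicates 1, 2, 4, 5 and 7 and 56.8, 74.4, 53.8, 64.8 and 40.4 in wild type replicates 2, 3, 5, 6 and 7. The lowest 3 were the same mice as for Opa1. Oma1 (ENSMUSG00000035069.3, chromosome 4, 103313812 to 103371868, plus strand), with 69 to 142 counts per mouse, had 6.38 to 10.1 CPM in ΔGm15551 and 7.08 to 8.87 in wild type, and ΔGm15551 replicate 5 was among its higher mice. The ratio of Oma1 to Yme1l1 therefore ran from 0.0967 in wild type replicate 3 to 0.206 in ΔGm15551 replicate 5.

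Dnm1l, the fission GTPase (ENSMUSG00000022789.15, chromosome 16, 16312230 to 16358959, minus strand) had 70.4, 74.7, 74.2, 55.5 and 76.0 CPM in ΔGm15551 replicates 1, 2, 4, 5 and 7 and 67.1, 95.9, 79.3, 84.4 and 60.0 in wild type replicates 2, 3, 5, 6 and 7. Its log2FC of -0.14 (SE 0.14, edgeR adjusted p = 0.9998) was the lowest of the 10, and 1 ΔGm15551 mouse lay below all wild type mice. Of its transcripts' 31-base words, 9.51% also occur in other genes, most of them in the processed pseudogene Gm13719, which had at most 1 count in any mouse. Mff (ENSMUSG00000026150.14, chromosome 1, 82724890 to 82752394, plus strand) ranged from 78.6 to 114 CPM with the same 3 low mice as Opa1. C430014B12Rik, which overlaps Mff on the opposite strand, had 4 to 14 counts beside the 775 to 1489 of Mff, and whether the counting used strand is not stated.

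Fis1 (ENSMUSG00000019054.13, chromosome 5, 136953275 to 136966234, plus strand) had 69.9, 50.02, 51.4, 71.3 and 53.6 CPM in ΔGm15551 replicates 1, 2, 4, 5 and 7 and 60.3, 44.4, 59.3, 51.8 and 87.6 in wild type replicates 2, 3, 5, 6 and 7. Its 3 highest mice were the 3 lowest for Opa1, and its lowest, wild type replicate 3, was the highest for Opa1, Yme1l1, Dnm1l and Mff. The ratio of Opa1 to Fis1, which was chosen after their values were seen, consequently spanned 1.22 to 4.94 over the 10 mice, a wider span than that of Opa1 to Dnm1l, 1.67 to 2.90.

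Pink1 (ENSMUSG00000028756.12, chromosome 4, 138313409 to 138326307, minus strand) had the highest log2FC of the 10, 0.15 (SE 0.12, edgeR adjusted p = 0.9998). Its CPM was 132, 164, 173, 184 and 192 in ΔGm15551 replicates 1, 2, 4, 5 and 7 and 146, 140.0, 165, 169.9 and 139 in wild type replicates 2, 3, 5, 6 and 7. Of the 5 ΔGm15551 mice, 3 were above every wild type mouse and 1 was below every one, and the means of 169 ± 23.1 and 152 ± 14.6 (SD, n = 5 each) differed by less than the spread of the ΔGm15551 group. ΔGm15551 replicate 5, low for Opa1, was second highest for Pink1.

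Tfam (ENSMUSG00000003923.14, chromosome 10, 71225464 to 71238280, minus strand) had 42.7, 56.8, 54.7, 41.7 and 59.6 CPM in ΔGm15551 replicates 1, 2, 4, 5 and 7 and 52.7, 64.6, 55.5, 55.3 and 39.9 in wild type replicates 2, 3, 5, 6 and 7. The same 3 mice as for Opa1 lay apart at the low end. The 13 mRNAs encoded by mtDNA, whose transcription TFAM helps to start, took 17.1% to 22.5% of all counts among ΔGm15551 mice (mean 19.6 ± 2.37 SD) and 18.7% to 21.4% among wild type mice (mean 19.97 ± 0.979 SD), with p = 0.738 by a two-sided exact permutation test of 5 against 5 mice. Among the 3 mice with the lowest Tfam, ΔGm15551 replicate 1 at 22.5% and wild type replicate 7 at 21.4%, were not low in this share, while ΔGm15551 replicate 5 had the lowest, 17.1%.

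**Figure D2:**
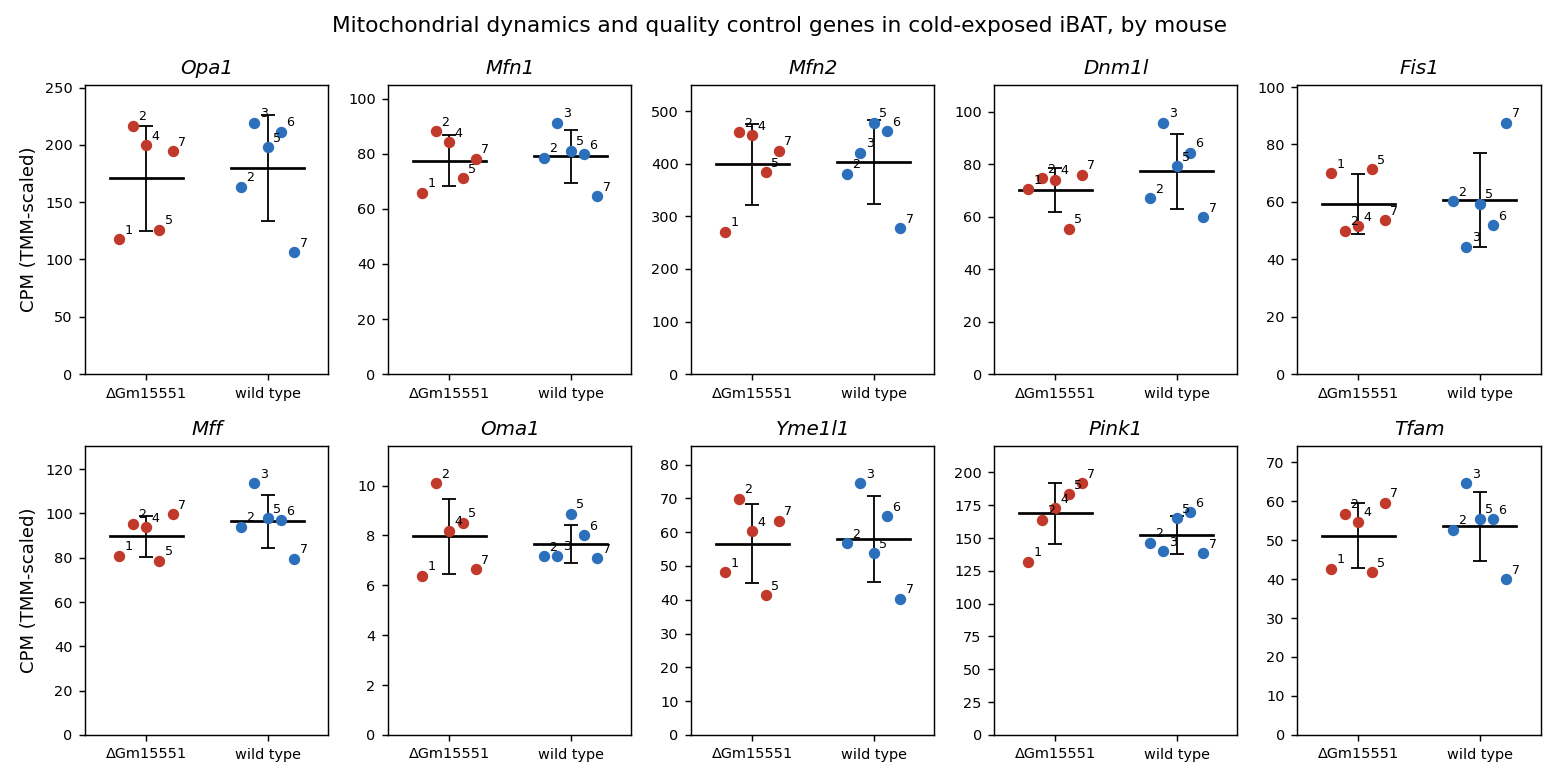
CPM (TMM-scaled) of the 10 genes in each mouse, with replicate numbers beside the points, the mean as a line and the SD as a bar, for 5 ΔGm15551 and 5 wild type mice. The groups overlap in every panel, and ΔGm15551 replicates 1 and 5 and wild type replicate 7 sit at the bottom for Opa1, Yme1l1, Mff and Tfam and at the top for Fis1.

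Counted over the 10 genes, wild type replicate 7 was among the 3 lowest mice for 9, ΔGm15551 replicate 1 for 8 and ΔGm15551 replicate 5 for 6, whereas wild type replicates 5 and 6 were among them for 0. Wild type replicate 2 was among the 3 lowest for only 2. It was below the median for 9, as were wild type replicate 7 and ΔGm15551 replicate 1, against 7 for ΔGm15551 replicate 5. Pairs of genes were compared over the mice by Pearson's r and Spearman's rho with two-sided permutation p-values adjusted over 71 relations. Where either gene split the mice into separate clusters, as Opa1, Mff, Tfam and Mfn2 did, r was taken within the larger cluster only and the test was exact. Of the 15 pairs that could be taken over all 10 mice, 5 passed an adjusted p of 0.05 for r, and of the 30 that could not, 0 passed with values not centred within genotype. All 5 lay among Fis1, Yme1l1, Mfn1 and Dnm1l, and the share of all gene pairs that would pass was not taken.

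Fis1 and Yme1l1 were the most opposed pair, with r = -0.96 (permutation p = 2e-05, adjusted p = 0.00142) and rho = -0.95 (permutation p = 0.00023, adjusted p = 0.0110), and r was -0.95 without the 2 mice farthest from the median of Fis1. Fis1 also ran against Mfn1 (r = -0.94, adjusted permutation p = 0.00213) and Dnm1l (r = -0.84, adjusted permutation p = 0.0364), and Yme1l1 ran with Mfn1 (r = 0.89) and Dnm1l (r = 0.86), both at an adjusted permutation p of 0.0234. Among all tested genes, 0.248% were at least as opposed to Fis1 as Yme1l1 was, 1.31% as Mfn1 and 8.54% as Dnm1l, so the opposition of Dnm1l and Fis1 was not particular to these genes. No such share was taken for Yme1l1 with Mfn1 or with Dnm1l. By rho, only Fis1 with Yme1l1 and Fis1 with Mfn1 passed, both at an adjusted permutation p of 0.0110. With values centred within genotype, r of Fis1 and Yme1l1 was -0.97.

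Within the 7 mice outside the low cluster, Mff and Tfam had r = 0.93 (exact permutation adjusted p = 0.0510). With values centred within genotype this pair passed, at r = 0.98 (exact permutation adjusted p = 0.00470), and with library totals it did not, at 0.88 (exact permutation adjusted p = 0.233). Yme1l1 and Tfam had r = 0.75 (exact permutation adjusted p = 0.201) and Opa1 and Tfam 0.61 (exact permutation adjusted p = 0.375). The last rested on single mice, since r was -0.27 without the 2 mice farthest from the median. Opa1 and Fis1 had r = -0.80 (exact permutation adjusted p = 0.146) and Fis1 and Tfam -0.78 (exact permutation adjusted p = 0.178), the latter falling to -0.02 without 2 mice. Oma1 and Pink1 were in none of the pairs that passed.

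**Figure D3:**
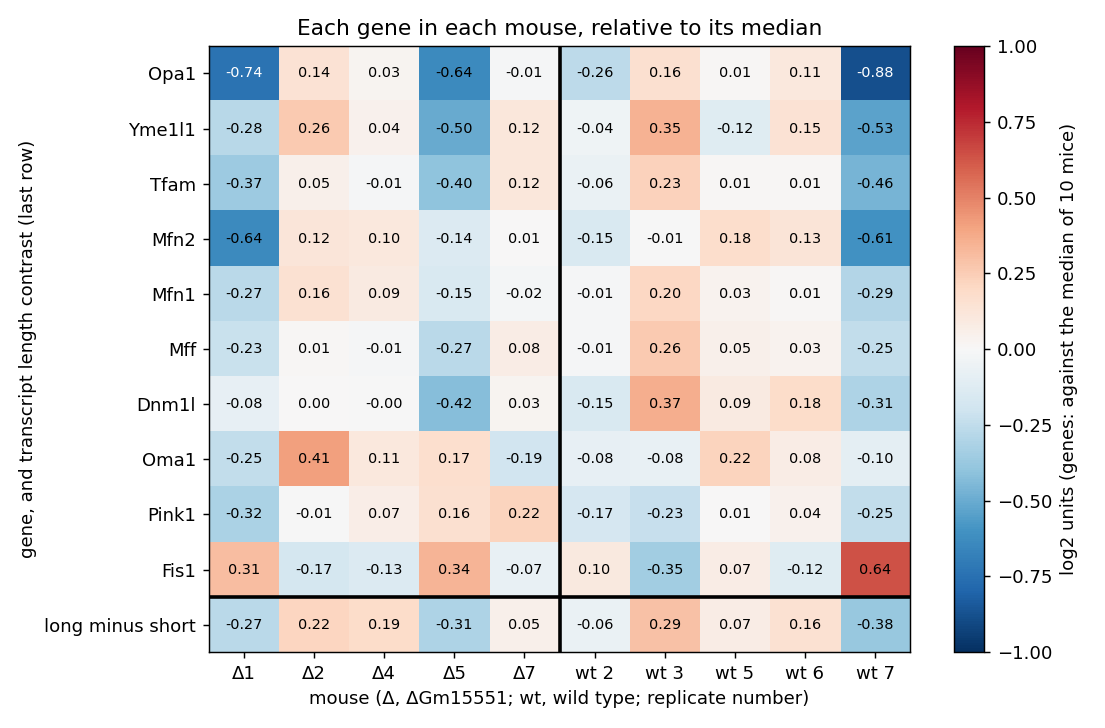
Log2 CPM of each gene in each mouse relative to the gene's median over the 10 mice (colour and printed value), with the contrast of long and short transcripts in the last row. ΔGm15551 replicates 1 and 5 and wild type replicate 7 are low in the upper rows, high for Fis1 and low in the length contrast.

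The same mice also stood apart in a property of the whole library. The median log2 level of genes with transcripts of at least 4000 bases, less that of genes under 1000 bases, relative to the mean mouse, was -0.27 in ΔGm15551 replicate 1, -0.31 in ΔGm15551 replicate 5 and, lowest, -0.38 in wild type replicate 7, against -0.06 in wild type replicate 2 and 0.05 to 0.29 in the other 6 mice. Between the genotypes it differed by less than the SD of either group (p = 0.802, two-sided exact permutation). The contrast used the longest coding transcript of each gene. By this length Opa1 (6230 bases), Yme1l1 (4707 bases) and Tfam (4167 bases), low in these mice, are in the long group. Fis1 (948 bases), high in them, is in the short group, and Mff (2087 bases), low in them, is in neither. By the median coding transcript, which the contrast did not use, Fis1 (786 bases) and Tfam (839 bases) are both short.

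After a loess correction of each mouse for transcript length and GC content, which was added after the data were seen, the ratio of the highest to the lowest mouse went from 1.97 to 1.37 for Fis1, from 1.73 to 1.31 for Dnm1l and from 1.62 to 1.36 for Tfam. For Opa1 it went from 2.06 to 1.88, for Mfn2 from 1.76 to 1.68 and for Yme1l1 from 1.84 to 1.67, and for Pink1 it rose from 1.45 to 1.55. Opa1 was still lowest in wild type replicate 7 (112), ΔGm15551 replicate 1 (119) and ΔGm15551 replicate 5 (150.4 corrected CPM), and Mfn2 still in ΔGm15551 replicate 1 (277) and wild type replicate 7 (285 corrected CPM). No pair passed an adjusted p of 0.05 after the correction, the nearest being Fis1 and Yme1l1 with r = -0.90 (adjusted permutation p = 0.0525). Mfn1 and Yme1l1 were at 0.88, Mfn1 and Fis1 at -0.72, Dnm1l and Fis1 at -0.67 and Dnm1l and Yme1l1 at 0.64. Without the 2 mice farthest from the median, r was then -0.81 for Fis1 and Yme1l1, 0.50 for Mfn1 and Yme1l1, -0.24 for Mfn1 and Fis1, -0.15 for Dnm1l and Fis1 and 0.31 for Dnm1l and Yme1l1. Within the 7 mice, r after the correction was 0.76 for Mff and Tfam and -0.54 for Fis1 and Tfam, and only -0.25 for Opa1 and Fis1, 0.23 for Opa1 and Tfam and 0.14 for Yme1l1 and Tfam. Other pairs had a larger r after the correction. Opa1 and Mfn2 went from 0.67 to 0.95 within the 7 mice (exact permutation adjusted p = 0.0634). Over all 10 mice, Yme1l1 and Pink1 went from 0.15 to 0.83 and Fis1 and Pink1 from -0.29 to -0.78 (adjusted permutation p = 0.0634 for both). Without the 2 mice farthest from the median, the corrected r of these pairs was 0.88, 0.37 and -0.74. Fewer cells of a type and less RNA per cell cannot be told apart in whole tissue.

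**Figure D4:**
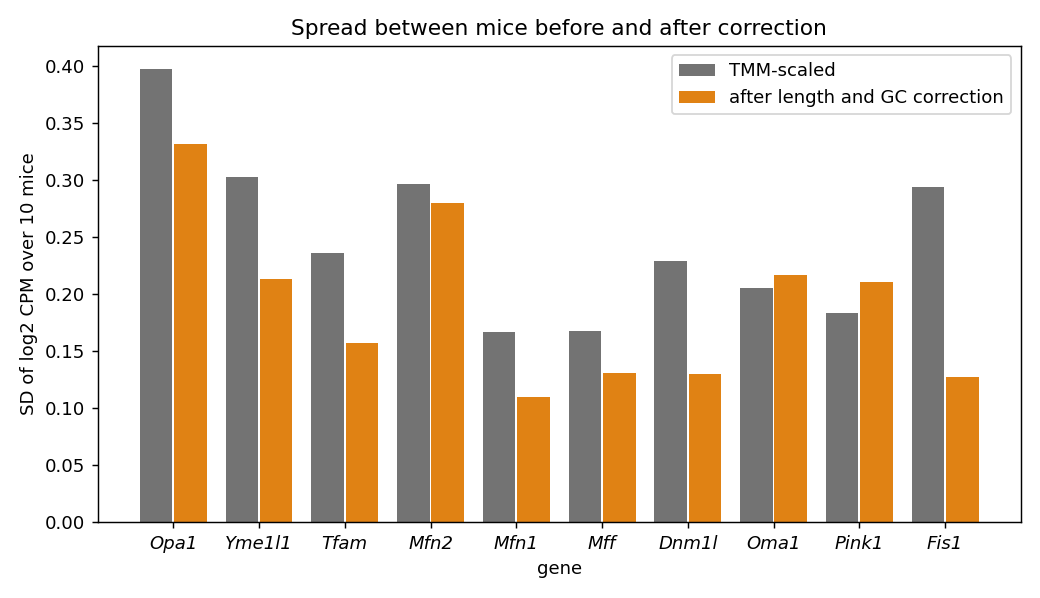
SD of log2 CPM over the 10 mice for each gene, TMM-scaled (grey) and after the length and GC correction (orange). The SD of Fis1 falls from 0.294 to 0.127, whereas that of Mfn2 goes from 0.297 to 0.280 and that of Opa1 from 0.398 to 0.332.

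Skeletal muscle genes were highest in wild type replicate 7, and their part in the shared spread was not tested. ΔGm15551 replicate 4, second in muscle genes at 0.158% of its counts, had 199.8 CPM of Opa1 and 51.4 of Fis1, and ΔGm15551 replicate 5, low for Opa1, had 0.00615%. The 4 mice with the least, ΔGm15551 replicates 2 and 7 and wild type replicates 3 and 6, had 0.000108% to 0.000255%. Within the other 6 mice, r between the muscle score and Mfn1, Dnm1l, Fis1, Oma1, Yme1l1 and Pink1 was -0.34 to 0.22 and 0 of these passed. For Opa1, Mfn2, Mff and Tfam too few mice were left for such a value. Ppargc1a, the cold-induced coactivator of mitochondrial biogenesis, ranged from 94.0 CPM in wild type replicate 7 to 362 in wild type replicate 3. Its r with Fis1 was -0.81 (adjusted permutation p = 0.0510) and fell to -0.37 without the 2 mice farthest from its median, and 0 relations of the 10 genes with Ppargc1a or Esrra, a nuclear receptor of the same programme, passed.

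Levels between genes were compared per kilobase of transcript, using the median length of the annotated coding transcripts. Mfn2 was highest at 124 ± 23.0 CPM per kb (SD, n = 10), followed by Pink1 (93.8 ± 11.8), Fis1 (76.3 ± 16.5), Tfam (62.4 ± 9.78), Mff (62.0 ± 7.19), Opa1 (54.9 ± 13.7) and Mfn1 (48.9 ± 5.54). Lower lay Dnm1l (22.6 ± 3.57), Yme1l1 (12.2 ± 2.45) and Oma1 (4.08 ± 0.596). Mfn2 was above Pink1 in 10 of 10 mice although their ranges overlapped, and Dnm1l, Yme1l1 and Oma1 were each apart from the gene above in all 10 mice, with no overlap at this length. From Pink1 to Mfn1, neighbours kept their order in only 6 to 8 of 10 mice. Tfam and Mff differed by 1.01 times, less than their spread. With the longest coding transcript in place of the median, Tfam moved from rank 4 to rank 8 at 12.6 CPM per kb, and Mfn2, Pink1, Fis1, Yme1l1 and Oma1 held ranks 1, 2, 3, 9 and 10. At that length Dnm1l lay above Mfn1 in 7 of 10 mice and Tfam above Yme1l1 in 7 of 10, both with overlapping ranges, so that only Oma1 kept its separation from the gene above. The genotypes had the same order except for Tfam and Mff, which changed places in wild type.

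**Figure D5:**
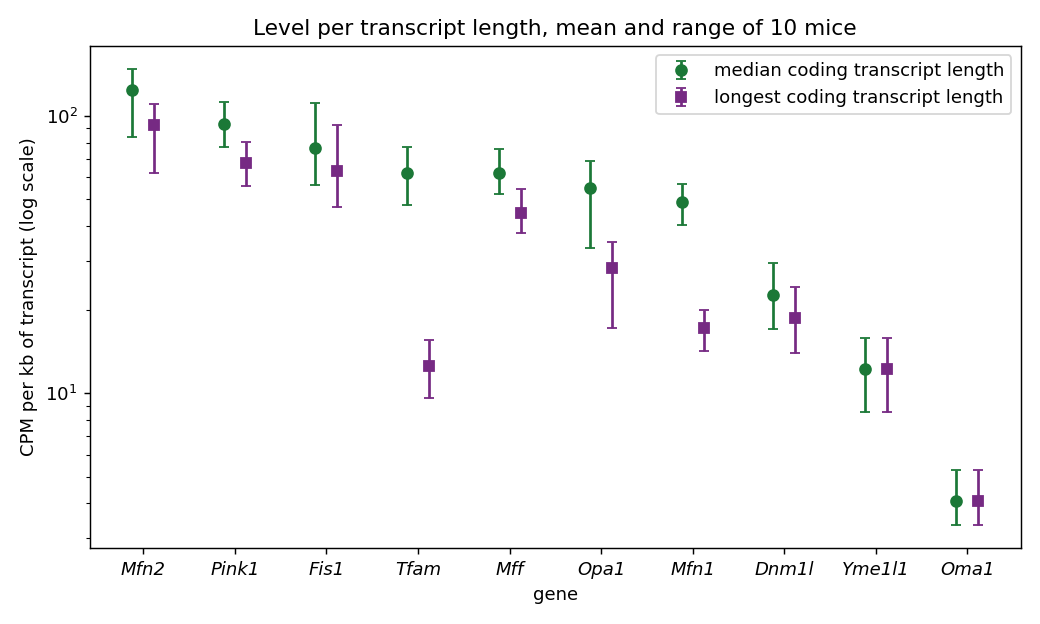
Level of each gene in CPM per kb of transcript (log axis), mean and range of 10 mice, for the median (circles) and the longest (squares) annotated coding transcript. Mfn2 is highest and Oma1 lowest with both lengths, and Tfam, at 62.4 and 12.6, depends most on the length used.

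The wider pathways gave the same answer on genotype. Of 144 genes in 7 lists, 142 were tested, Gdap1 and Mtfr2 falling under the filter, 0 passed after adjustment and 1 passed an unadjusted p of 0.05, which is 0.704% beside 1.59% of all genes tested. Counts at the unadjusted threshold moved with single mice: without ΔGm15551 replicate 1, 3 mitophagy genes passed in place of 0 (3.03% of all tested genes at that setting), without ΔGm15551 replicate 7, 2 fusion genes in place of 0 (1.83% of all), and without wild type replicate 7, 2 proteases and chaperones in place of 1 (2.91% of all). The 1 protease was lost without any 1 of ΔGm15551 replicates 1 and 7 and wild type replicates 2, 3, 5 and 6. It was Immp2l, a peptidase of the inner membrane, with 16.6 to 25.3 CPM in the ΔGm15551 mice and 14.2 to 17.9 in the wild type mice (log2FC 0.29, SE 0.13, edgeR adjusted p = 0.9998). The median log2FC of a list lay between -0.01 and 0.03 in each of the 7.

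Of 22 genes of fusion, cristae and transport, 9 had a positive and 13 a negative log2FC, from Miga1, a fusion factor of the outer membrane, at -0.28 (SE 0.15) to Pld6, a mitochondrial phospholipase, at 0.17 (SE 0.16). Apool had -0.16 and Cluh, an mRNA-binding protein for mitochondrial transcripts, 0.07. Of 16 fission genes, 7 were positive and 9 negative, from the DRP1 receptor Mief1 at -0.11 and Ppp3ca, a calcineurin subunit, at -0.10 to the kinase anchor Akap1 at 0.12 and the actin nucleator Spire1 at 0.18. None of these passed the test, so these are values only.

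Of 27 mitophagy genes, 14 were positive and 13 negative, with Nipsnap2 at -0.17, Ambra1 at -0.12, the mitophagy receptor Bnip3 at 0.23 and Gabarapl1, an autophagosome protein, at 0.25. Of 26 proteases and chaperones, 16 were positive and 10 negative, with Parl, the rhomboid protease that cuts PINK1, at -0.14, the chaperone Hspa9 at -0.08 and the stress response factor Atf5 at 0.24 beside Immp2l. Of 26 genes of mtDNA maintenance, 12 were positive and 14 negative, with Dna2 at -0.39, the polymerase subunit Polg2 at -0.22, the nucleoside kinase Dguok at 0.15 and the exonuclease Mgme1 at 0.16.

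The 12 regulators of biogenesis split evenly, 6 and 6, with Esrrg at -0.33, Gabpa, which gives its name to the motif marked above, at -0.24, Gabpb1 at 0.17 and Ppargc1b at 0.21. The ΔGm15551 mice had 222 ± 59.4 CPM of Ppargc1a and the wild type mice 232 ± 95.9, and for Esrra the means were 381 ± 16.3 and 369 ± 44.9 (SD, n = 5 each). Of the 13 mRNAs of mtDNA, 5 were positive and 8 negative, from mt-Atp8 at -0.20 and mt-Nd1 at -0.12 to mt-Cytb at 0.07 and mt-Nd3 at 0.11. No list held a gene that passed after adjustment.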

How the data were processed

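Poly A RNA of iBAT was sequenced in pairs by the authors, filtered with cutadapt and quantified with salmon against GENCODE M22 on GRCm38 (or M22 joined with RNAcentral), and versions were not stated in the sources used here. The values deposited by the authors were estimated counts (expected counts) per gene, in whole numbers, with 1 column per mouse and no scaling, and all 10 columns were matched by name. How transcripts were summed to genes, and whether strand was used, is not stated. Salmon splits reads between transcripts that share sequence, so genes with such sequence are less certain.

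Counts were tested in R 4.3.3 with edgeR 4.0.16 (filterByExpr, minimum count 10 and total 15, TMM, robust quasi-likelihood test with genotype as the only term, Benjamini-Hochberg over 13732 genes, threshold 0.05). The standard error was taken from the F statistic. Intervals came from limma-voom (limma 3.58.1) and DESeq2 1.42.0 was an alternative. The edgeR step was tested on simulated data. The length and GC correction was fitted on log2 CPM with a prior count of 2, and ratios and correlations between genes used log2 CPM without one. Permutation tests over the 10 mice were exact over 252 assignments for genotype, and used 100000 resamples for correlations over 10 mice and all orders for smaller n. A gene was taken to split the mice where a gap exceeded 0.333 of its range with at least 2 mice on each side.

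Positions and transcript lengths came from GENCODE M21 on GRCm38, in which 99.5% of gene IDs and all 10 genes were found, and promoter sequences from RefSeq. A search for the NRF-1 motif is not reported here. Same-group mice differed by a chi-square per degree of freedom of at least 12.4, so no library was counted as a copy. With 9680976 to 15771170 counts in a mouse, low genes are measured least precisely, and counts of reads without molecular identifiers carry more than counting error. Columns of no other kind were present. The genes, lists and tests were chosen with earlier results of these data known. Genes named were the 10, from each list the 2 highest and 2 lowest by log2FC and any that passed an adjusted or unadjusted p of 0.05, Ppargc1a, Esrra, Gm15551, and the 3 most alike and 3 most opposed pairs; the other pairs that passed were named after their values were seen. Alternatives were other scalings, filters, tools and sets of mice, and the length and GC correction (loess, span 0.3), the removal of 2 mice together and the ratio of Opa1 to Fis1 were added after the data were seen.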

Additional observations from a re-analysis of the deposited data

Results flagged for a closer look

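Within groups of 5 mice, 38 sets of values were searched for a mouse whose gap to its nearest neighbour, divided by the range, was above Dixon's critical value of 0.71. Of these, 4 had one, and 1 in 20 sets, or 1.9, would by chance. Dnm1l was 55.5 CPM in ΔGm15551 replicate 5, below 70.4 to 76.0 in the other 4 ΔGm15551 mice. The log2 ratio of Mfn2 to Mfn1 was 2.04 in ΔGm15551 replicate 1, below 2.38 to 2.44 in the others of its group. The log2 ratio of Opa1 to Dnm1l was 0.83 in wild type replicate 7, below 1.19 to 1.33 in the other wild type mice. The skeletal muscle genes took 0.263% of counts in wild type replicate 7, above 0.000133% to 0.0228% in the other wild type mice. The part of muscle RNA in the first 3 values was not tested. The 3 mice concerned are those with the lowest contrast of long and short transcripts.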

How the results depend on the processing

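Genotype was refitted under 22 alternatives. None called a gene, and none of the 220 values of the 10 genes passed an adjusted p of 0.05, the smallest being 0.887 for Pink1 (edgeR, limma-voom or DESeq2). Of these values, 34 changed sign, 0 of them for Dnm1l and Pink1. Dnm1l ranged from -0.22 to -0.0018, being -0.0053 and -0.0018 in the 6 mice with and without the block, -0.069 after the length and GC correction, -0.052 without wild type replicate 3 and, leaving out ΔGm15551 replicate 5, -0.071. Pink1 ranged from 0.073 after that correction to 0.26 in the 6 mice with and without the block, with 0.23 without ΔGm15551 replicate 1 and 0.0999 without ΔGm15551 replicate 7. At an unadjusted p under 0.05, 219 genes (1.59% of those tested) passed, and 869 (2.80%) with no filter, 397 (2.88%) in the 6 mice with shared numbers under the replicate block, 552 (4.00%) in these 6 mice unblocked and 417 (3.05%) without both ΔGm15551 replicate 1 and wild type replicate 7. With each mouse left out in turn the share was 1.20% to 3.03%, reaching 3.03% (419 genes) without ΔGm15551 replicate 1 and 2.91% (404 genes) without wild type replicate 7. The deviations of same-numbered mice correlated at 0.17, -0.26 and -0.11 for replicates 2, 5 and 7. With no reference values beside them, these do not settle whether the numbers pair the mice.

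In the 6 mice under the replicate block and unblocked, log2FC turned to 0.21 and 0.20 for Opa1, 0.084 and 0.082 for Mfn1, 0.19 and 0.16 for Mfn2, 0.0093 and 0.011 for Mff, 0.19 and 0.21 for Yme1l1 and 0.090 and 0.093 for Tfam. After the length and GC correction it turned to 0.013 for Mfn1 and 0.050 for Yme1l1. That of Fis1 turned to 0.18 without wild type replicates 5, 6 and 7 and to 0.069 without ΔGm15551 replicate 1 and wild type replicate 7. With each mouse left out in turn, log2FC was -0.21 to 0.035 for Opa1, -0.093 to 0.028 for Mfn1, -0.13 to 0.093 for Mfn2, -0.13 to 0.14 for Fis1, -0.17 to -0.039 for Mff (-0.039 without wild type replicate 3, -0.063 without ΔGm15551 replicate 5), -0.048 to 0.12 for Oma1, -0.14 to 0.068 for Yme1l1 and -0.16 to 0.0059 for Tfam. At an unadjusted p, lists with 0 genes in the fit of all mice had 1 in some others: mtDNA maintenance and biogenesis regulators without wild type replicate 7 (beside 2.91% of all genes), biogenesis regulators without it and ΔGm15551 replicate 1 (3.05%), mtDNA-encoded mRNAs without ΔGm15551 replicate 7 (1.83%), mtDNA maintenance in the 6 mice under the block (2.88%), and fission, mitophagy and mtDNA maintenance in these mice unblocked (4.00%). The protease list had 0 in both fits of the 6 mice and without wild type replicates 5, 6 and 7 (1.91%). The difference in the mtDNA-encoded share was -1.09 to 0.26 percentage points, positive without ΔGm15551 replicate 5. For r of Opa1 and Tfam, -0.27 was found without the 2 mice farthest from the median. The cause of these changes was not tested.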
